A study of Mus musculus with 18 samples.

Results

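The granzyme and innate cytotoxic genes followed here are *Gzma*, *Gzmb*, *Prf1*, *Nkg7*, *Ctsw*, *Klrd1*, *Fcer1g* and *Tyrobp*, and every probe set annotated to one of these symbols alone was taken. They are 8 of the 12393 genes with a probe set of their own, and 9 of the 22626 probe sets on the array, since *Prf1* has a pair of probe sets. The arrays measured messenger RNA of sorted early thymocytes of C57BL/6 mice, either adult females aged 4 to 6 weeks or fetuses labelled E14.5 (the methods of the study place the fetal thymi a day later). In both ages the lineage negative cells were sorted into early thymic progenitors (ETP, CD44+CD25-c-kit+), DN2 cells (CD44+CD25+) and DN3 cells (CD44-CD25+), which gave 6 groups of 3 arrays. No group carried a transgene, a mutation or a treatment. Cells bearing CD8α, CD3ε, NK1.1, CD11b or TER119 had been depleted before the sort, and an antibody to CD16 and CD32 had been used as a block.

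Each array held pooled RNA of 4 adult or 2 fetal sorts. The labels call the arrays of a group biological replicates and the methods call them technical, so p-values here rest on differences among arrays of a group, which may be technical only. In such bulk samples fewer cells of a type and less RNA per cell cannot be told apart.

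Cytotoxic lymphocytes kill by releasing granules onto a target cell. Perforin, the product of *Prf1*, opens the target membrane, and granzymes A and B, a tryptase and an aspartate-directed serine protease, cleave proteins inside the target. *Nkg7* encodes a granule membrane protein and *Ctsw* cathepsin W, a cysteine protease of cytotoxic lymphocytes. *Klrd1* encodes CD94, which pairs with NKG2 chains to form receptors for the nonclassical class I molecule Qa-1. *Fcer1g* and *Tyrobp* encode FcRγ and DAP12, small adaptors with an immunoreceptor tyrosine-based activation motif (ITAM) that carry the signals of Fc receptors and of many receptors of natural killer and myeloid cells. In the thymus such genes are known from innate-like lymphocytes and from progenitors that have not yet lost other lineage choices.

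All values below are log2 intensities from which the median of the probe set over the 18 arrays had been subtracted. They rank the arrays for a gene but hold no level, so no gene is compared in level with another. A difference was called when limma's adjusted p (Benjamini and Hochberg, over all 22626 probe sets) was under 0.05 and the means of the compared groups were 1.8-fold apart or more. The array medians lay between -0.09 and 0.05.

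The sorting markers followed the labels with an exception. *Il2ra*, which encodes CD25, had means of -3.81 in adult ETP and -4.35 in fetal ETP and of 0.25 to 0.99 in the DN2 and DN3 groups. *Cd44* stood at -7.97, -7.84 and -0.86 in the 3 adult DN3 arrays and at -8.38, -6.91 and -6.89 in fetal DN3. *Cd34* likewise stood at -7.19, -7.58 and -0.90 in adult DN3. The library of adult DN3 replicate 3 therefore lies apart from its group in genes that DN3 cells are sorted or known to lack, and results that it moves are given with and without it.

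Among the 8 genes, 7 were regulated over the 6 groups, against 16.8% of all probe sets, with adjusted p from 4.07e-08 for *Klrd1* to 0.00982 for *Nkg7* (limma's moderated F test). *Prf1* was the exception. Counted by gene, with a single probe set each as in the lists below, 2442 of 12393 genes were regulated, a larger share than 16.8%. The shares of all probe sets given beside counts of genes are not matched in this respect. *Nkg7* missed the threshold without adult DN3 replicate 1 (adjusted p = 0.0507). The regulated genes did not share a course. With all arrays in the fit, *Gzma*, *Gzmb*, *Fcer1g* and *Ctsw* were called both between ages and between stages, and *Klrd1*, *Tyrobp* and *Nkg7* between stages. *Nkg7* and *Ctsw* moved over narrower ranges than the other regulated genes, as the plot of the arrays shows.

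**Figure D1:**
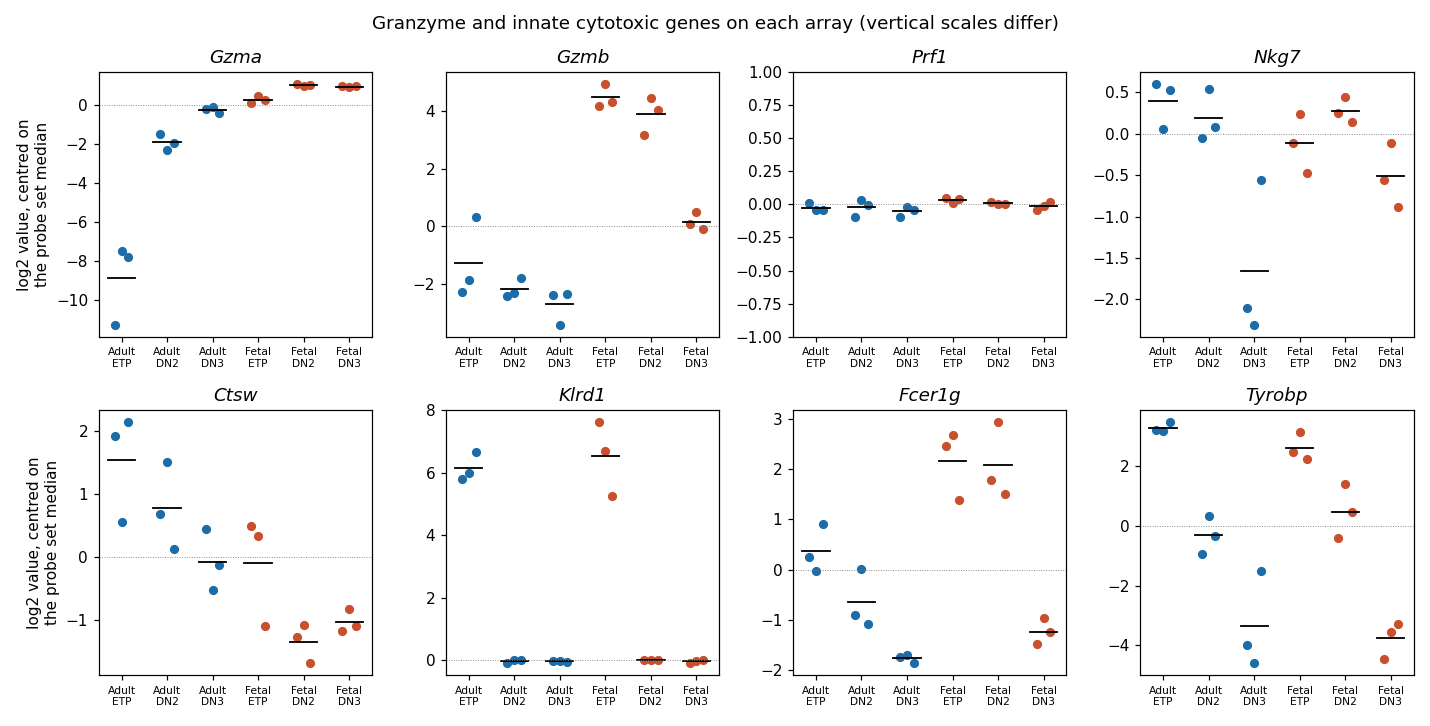
Centred log2 value of each gene on each of the 18 arrays, by group, with adult arrays in blue, fetal arrays in orange and the group mean as a bar. Vertical scales differ between panels. *Gzma* rises along the adult groups from a mean of -8.87, *Gzmb* is highest in fetal ETP and DN2, *Klrd1* is high in both ETP groups alone, and *Prf1* spans 0.14 over all arrays.

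*Gzma* was lowest in adult ETP and highest in fetal DN2 and DN3. Its values were -11.29, -7.51 and -7.81 in adult ETP, -1.48, -2.32 and -1.93 in adult DN2, and -0.20, -0.11 and -0.39 in adult DN3. In fetal cells they were 0.11, 0.45 and 0.27 in ETP, 1.09, 0.97 and 1.01 in DN2, and 0.99, 0.93 and 0.96 in DN3. Every adult array lay below every fetal array, and within the adult cells the 3 stages did not overlap. The group means thus ran in the order fetal DN2, fetal DN3, fetal ETP, adult DN3, adult DN2 and adult ETP, and fetal DN2 and DN3 were the only neighbours whose arrays overlapped. *Gzma* spanned 12.38 log2, more than 99.97% of probe sets did, and varied most within adult ETP (SD 2.10). Since the values hold no level, limits of the measured range at either end could not be checked.

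*Gzma* was 9.15 ± 0.69 log2 higher in fetal than in adult ETP (SE, limma, adjusted p = 2.44e-06) and 2.94 ± 0.69 higher in fetal than in adult DN2 (adjusted p = 0.0309). At DN3 the difference of 1.19 ± 0.69 was not called (adjusted p = 0.698). In adult cells *Gzma* rose by 6.96 ± 0.69 from ETP to DN2 (adjusted p = 3.18e-05) and by 8.64 ± 0.69 from ETP to DN3 (adjusted p = 2.45e-06). The adult step from DN2 to DN3 (1.68, adjusted p = 0.36) and the fetal steps (0.75 and -0.07, adjusted p = 0.951 and 0.979) were not called. One library weighs on these errors. Adult ETP replicate 1, at -11.29, widens the spread that the fit shares over the groups, and without it the fetal excess at DN3 was called (1.19, adjusted p = 0.00127), as was the adult step from DN2 to DN3 (1.68, adjusted p = 0.000482). The DN2 difference was lost without adult DN2 replicate 2 or 3 or any of the fetal DN2 arrays (2.73 to 2.96, adjusted p = 0.0756 to 0.102). With the arrays of the compared groups alone, the adult rise from ETP to DN2 had an adjusted p of 0.0694.

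*Gzmb* was high in fetal ETP and DN2 and low in all adult groups. Its values were -2.29, -1.85 and 0.31 in adult ETP, -2.40, -2.31 and -1.78 in adult DN2, and -2.37, -3.41 and -2.35 in adult DN3. In fetal cells they were 4.19, 4.95 and 4.33 in ETP, 3.17, 4.47 and 4.04 in DN2, and 0.08, 0.49 and -0.08 in DN3. At each stage the fetal arrays lay above the adult arrays, and across stages only adult ETP replicate 3 reached the range of fetal DN3. In the order of the means, fetal ETP and fetal DN2 overlapped, a gap of 3.73 followed, and the remaining neighbours (fetal DN3, adult ETP, adult DN2 and adult DN3) overlapped.

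The fetal excess of *Gzmb* was 5.76 ± 0.57 log2 at ETP (limma, adjusted p = 3.00e-05), 6.06 ± 0.57 at DN2 (adjusted p = 3.75e-05) and 2.87 ± 0.57 at DN3 (adjusted p = 0.0116). It was the only one of the 8 genes called between fetal and adult cells at all 3 stages. In fetal cells *Gzmb* fell by 3.73 ± 0.57 from DN2 to DN3 (adjusted p = 0.00201) and by 4.33 ± 0.57 from ETP to DN3 (adjusted p = 0.00025). No adult step was called (-0.89 from ETP to DN2 and -0.55 from DN2 to DN3, adjusted p = 0.494 and 0.931). The DN3 difference was lost without adult DN3 replicate 2 (2.52, adjusted p = 0.0641) or fetal DN3 replicate 2 (2.71, adjusted p = 0.0561).

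RefSeq sequences of the bases before the transcript start were held for 5 of the 8 genes, and those of both granzymes are shown because both genes were higher in fetal cells and took different courses along the stages. Each stretch covers the 250 bases before the start on build GRCm38.p6, 5′ to 3′ on the strand of the gene. Capitals mark matches, on either strand, to the letters TGTGGT (Runx factors), TGANTCA (AP-1), AGGAAG (ETS factors) and TCACAC (T-box factors), none of which overlap in these stretches.

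Gzma, chr13:113100982-113101231, minus strand: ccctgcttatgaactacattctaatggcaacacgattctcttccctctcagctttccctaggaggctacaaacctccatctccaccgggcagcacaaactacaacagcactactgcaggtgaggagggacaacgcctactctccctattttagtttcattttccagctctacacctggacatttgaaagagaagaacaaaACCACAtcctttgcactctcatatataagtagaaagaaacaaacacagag

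Gzmb, chr14:56262335-56262584, minus strand: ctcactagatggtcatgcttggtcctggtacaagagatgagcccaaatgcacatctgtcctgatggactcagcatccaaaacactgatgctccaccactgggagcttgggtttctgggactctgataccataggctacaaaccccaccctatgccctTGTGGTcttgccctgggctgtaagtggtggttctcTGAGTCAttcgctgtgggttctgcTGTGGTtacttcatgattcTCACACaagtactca

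*Gzmb* holds 2 Runx matches (bases 93 to 88 and 34 to 29 before the start), an AP-1 match (58 to 52) and a T-box match (15 to 10), and no ETS match. *Gzma* holds a single Runx match on the opposite strand (50 to 45) and none of the other motifs. The T-box letters are not particular to *Gzmb*. *Nkg7*, whose stretch is not printed, holds a T-box match (12 to 7, opposite strand), a Runx match (83 to 78, opposite strand) and an ETS match (34 to 29). Among 32841 promoters of the same length, 14% hold the Runx letters, 6.75% the AP-1 letters, 29.5% the ETS letters and 12.3% the T-box letters. A match describes the letters in the stretch and is no measurement of binding.

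*Prf1*, the perforin gene, did not move. Over the 18 arrays its probe sets spanned 0.128 and 0.143 log2, and neither was regulated (adjusted p = 0.482 and 0.443). A flat profile of this kind was common, since 7064 probe sets (31.2%) spanned under 0.3, and on every array *Prf1* lay within 0.045 of their median profile. With centred values a flat course does not tell a gene that is absent from one that is constant. *Prf1* is shown beside the granzymes because its course differed from theirs. Its stretch, marked in the same way, holds a Runx match (bases 130 to 125 before the start, opposite strand) and 2 ETS matches (197 to 192, opposite strand, and 109 to 104).

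Prf1, chr10:61297586-61297835, plus strand: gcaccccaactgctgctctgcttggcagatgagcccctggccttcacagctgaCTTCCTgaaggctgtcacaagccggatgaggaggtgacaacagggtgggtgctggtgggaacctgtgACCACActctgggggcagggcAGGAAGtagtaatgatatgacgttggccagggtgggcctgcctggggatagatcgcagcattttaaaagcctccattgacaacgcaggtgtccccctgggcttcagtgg

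*Nkg7* was lowest in adult DN3. Its values were 0.60, 0.05 and 0.53 in adult ETP, -0.05, 0.54 and 0.08 in adult DN2, and -2.11, -2.31 and -0.55 in adult DN3. In fetal cells they were -0.12, 0.24 and -0.47 in ETP, 0.24, 0.45 and 0.14 in DN2, and -0.56, -0.11 and -0.88 in DN3. Only replicates 1 and 2 of adult DN3 lay clear of the other groups, while replicate 3 lay inside the range of fetal DN3. All neighbours in the order of the means overlapped.

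In the adult *Nkg7* fell by 1.85 ± 0.38 log2 from DN2 to DN3 (limma, adjusted p = 0.04), and from ETP to DN3 by 2.05 ± 0.38 (adjusted p = 0.00265). Without adult DN3 replicate 3 these differences were -2.40 (adjusted p = 0.000226) and -2.60 (adjusted p = 2.95e-05), and *Nkg7* was then also 1.69 higher in fetal than in adult DN3 (adjusted p = 0.0025), against 1.14 (adjusted p = 0.189) with that library. The fall from DN2 to DN3 is otherwise a weak call, lost in 13 of the 18 fits that left out an array (adjusted p = 0.0509 to 0.186) and kept without adult ETP replicate 1 or 2, adult DN2 replicate 1, adult DN3 replicate 3 or fetal ETP replicate 3. With the arrays of the compared groups alone, neither fall was called (adjusted p = 0.547 and 0.112). In fetal cells the change of -0.79 from DN2 to DN3 was not called (adjusted p = 0.593).

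*Ctsw* ran against the granzymes, with its higher values in adult cells. Its values were 1.92, 0.56 and 2.15 in adult ETP, 0.69, 1.52 and 0.13 in adult DN2, and 0.44, -0.52 and -0.13 in adult DN3. In fetal cells they were 0.50, 0.34 and -1.10 in ETP, -1.26, -1.07 and -1.68 in DN2, and -1.17, -0.82 and -1.09 in DN3. At each stage every adult array lay above every fetal array, but all neighbours in the order of the means overlapped. *Ctsw* was 2.12 ± 0.49 lower in fetal than in adult DN2 (-2.12, limma, adjusted p = 0.0296). The ETP difference of -1.63 ± 0.49 missed the threshold (adjusted p = 0.052), and the DN3 difference was -0.96 ± 0.49 (adjusted p = 0.598). From adult ETP to adult DN3 *Ctsw* fell by 1.61 ± 0.49 (adjusted p = 0.0483).

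The calls of *Ctsw* hung on single arrays. The fall from adult ETP to DN3 was lost in 13 of 18 fits without an array (adjusted p = 0.0519 to 0.176, with a difference of -1.58 and adjusted p = 0.118 without adult DN3 replicate 3) and kept without adult ETP replicate 2, adult DN2 replicate 2 or 3, adult DN3 replicate 1 or fetal ETP replicate 3. The DN2 difference was lost without adult DN2 replicate 1 or 2 or any of the fetal DN2 arrays (-1.75 to -2.25, adjusted p = 0.0604 to 0.104). The ETP difference was called without adult ETP replicate 2 (-2.12, adjusted p = 0.0167) or adult DN2 replicate 2 or 3 (-1.63, adjusted p = 0.0426 and 0.0462).

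Among other proteins of cytotoxic granules, 4 of 17 measured genes were regulated (23.5%, against 16.8% of all probe sets and a larger share by gene). Of the 17, 6 spanned under 0.3 log2. *Gzmc*, *Gzmd*, *Gzmg*, *Gzmk*, *Gzmm* and *Gzmn* were the flat ones, and *Gzme* and *Gzmf* spanned 0.35 and 0.39, so that among the 10 measured granzymes those that were regulated are *Gzma* and *Gzmb*. None of the 17 genes was called between fetal and adult cells at ETP or at DN2, against 8.49% and 3.44% of all probe sets. At these stages 5 and 3 had an unadjusted p under 0.05 by limma. At DN3 1 was called (5.88%, against 2.77% of all probe sets).

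*Cst7*, which encodes cystatin F, an inhibitor of granule cathepsins, followed the stages. In adult cells it stood at 1.07, 0.26 and 0.26 in ETP, 0.05, 0.73 and 0.63 in DN2, and -6.23, -6.28 and -0.56 in DN3. In fetal DN3 it stood at -6.33, -5.74 and -6.24, far below fetal DN2 (-0.73, 0.88 and -0.48). It fell from fetal DN2 to DN3 (-5.99, limma, adjusted p = 0.00928) and from adult ETP to DN3 (-4.89, adjusted p = 0.0104). Without adult DN3 replicate 3 the adult difference was -6.79 (adjusted p = 8.26e-07), and the adult step from DN2 to DN3, not called with that library (-4.83, adjusted p = 0.0615), came to -6.73 (adjusted p = 2.70e-06). *Srgn*, the proteoglycan that packs granzymes in the granule, fell from fetal ETP to DN3 (-1.83, adjusted p = 0.00394) and from adult ETP to DN3 (-1.10, adjusted p = 0.0483). *Serpinb6b*, a granule protease inhibitor, fell from adult ETP to DN3 (-2.81, adjusted p = 0.000152) and was 1.5 higher in fetal than in adult DN3 (adjusted p = 0.0398), while *Ctsl*, cathepsin L, rose in both ages (1.24 in adult and 1.02 in fetal cells from ETP to DN3, adjusted p = 0.00774 and 0.0389).

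Of the 7 measured genes of granule release 3 were regulated, a share of 42.9% against 16.8% of all probe sets. *Snap23*, a membrane fusion protein, was 2.21 higher in fetal than in adult ETP (limma, adjusted p = 0.0016), and *Lyst*, the lysosome trafficking gene mutated in beige mice, was 1.26 lower (-1.26, adjusted p = 0.0404). *Vamp8*, a vesicle fusion protein, fell from fetal ETP to DN3 (-1.62, adjusted p = 0.0251).

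*Klrd1* stood out at the ETP stage of both ages. It stood at 5.79, 6.01 and 6.65 in adult ETP and at 7.63, 6.70 and 5.27 in fetal ETP. In the 12 DN2 and DN3 arrays it lay between -0.09 and 0.01, within 0.032 of the flat profile. The ETP arrays of both ages overlapped and all lay above all later arrays by more than 5 log2.

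The step from ETP to DN2 was -6.18 ± 0.41 log2 in the adult (limma, adjusted p = 6.86e-07) and -6.54 ± 0.41 in the fetus (adjusted p = 1.07e-06). The fetal and adult ETP means differed by 0.38 ± 0.41 (adjusted p = 0.479), and without fetal ETP replicate 3 by 1.01 (adjusted p = 0.0225). Over the 18 fits that left out an array this difference ran from -0.17 to 1.01, and no other of these fits called it. The change of this difference from ETP to DN2 was not called (-0.36 ± 0.58, adjusted p = 0.838). With the arrays of the compared groups alone the fetal fall had an adjusted p of 0.0549.

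*Klrc1*, which encodes NKG2A, the inhibitory partner of CD94, was found in fetal ETP. It stood at 5.07, 3.95 and 0.61 in fetal ETP and between -0.21 and 0.03 on all 15 other arrays. The fetal excess at ETP was 3.30 (limma, adjusted p = 0.0123). The fetal ETP arrays ran in the same order in both genes, with replicate 3 the lowest. *Klrc2*, which encodes the activating partner NKG2C, and *Klrk1*, which encodes NKG2D, spanned 0.52 and 0.14 and were not regulated.

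Of the 23 measured natural killer receptor genes 6 were regulated (26.1%, against 16.8% of all probe sets). In fetal ETP, 3 were called above adult ETP and 2 below it, together 21.7% of the list against 8.49% of all probe sets. The lower ones were *Il18r1* and *Il18rap*, the chains of the interleukin-18 receptor, at differences of -2.35 (limma, adjusted p = 0.000427) and -2.47 (adjusted p = 0.0165). *Il18r1* stood at 2.93, 2.99 and 1.25 in adult ETP and at 0.01 to 0.09 in fetal ETP. *Cd160*, a receptor of natural killer and innate-like T cells, was 1.65 higher in fetal ETP (adjusted p = 0.0267) and 2.37 higher in fetal DN2 (adjusted p = 0.00688).

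*Fcer1g* was high in fetal ETP and DN2 and lowest in DN3 of both ages. Its values were 0.24, -0.02 and 0.91 in adult ETP, -0.90, 0.02 and -1.08 in adult DN2, and -1.74, -1.71 and -1.86 in adult DN3. In fetal cells they were 2.46, 2.68 and 1.38 in ETP, 1.79, 2.94 and 1.50 in DN2, and -1.49, -0.97 and -1.25 in DN3. At each stage the fetal arrays lay above the adult arrays. In the order of the means, fetal ETP and DN2 overlapped and lay apart from adult ETP, and adult DN3 lay apart below fetal DN3.

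*Fcer1g* was 1.79 ± 0.42 log2 higher in fetal than in adult ETP (limma, adjusted p = 0.0151) and 2.73 ± 0.42 higher at DN2 (adjusted p = 0.00195), while the DN3 difference of 0.53 ± 0.42 was not called (adjusted p = 0.894). It fell by 3.31 ± 0.42 from fetal DN2 to DN3 (adjusted p = 0.000498) and by 2.15 ± 0.42 from adult ETP to DN3 (adjusted p = 0.00378), with adult steps of -1.03 and -1.12 that were not called singly (adjusted p = 0.193 and 0.299). The ETP difference was lost without adult ETP replicate 2 (1.59, adjusted p = 0.0613), fetal ETP replicate 1 (1.65, adjusted p = 0.0624) or fetal ETP replicate 2 (1.54, adjusted p = 0.0685). With the arrays of the compared groups alone, neither the ETP nor the DN2 difference was called (adjusted p = 0.101 and 0.133). The 250 bases before the start of *Fcer1g*, shown because its course was nearest to that of *Gzmb* among the 8 genes, hold an ETS match (44 to 39) and none of the Runx, AP-1 and T-box letters.

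Fcer1g, chr1:171234350-171234599, minus strand: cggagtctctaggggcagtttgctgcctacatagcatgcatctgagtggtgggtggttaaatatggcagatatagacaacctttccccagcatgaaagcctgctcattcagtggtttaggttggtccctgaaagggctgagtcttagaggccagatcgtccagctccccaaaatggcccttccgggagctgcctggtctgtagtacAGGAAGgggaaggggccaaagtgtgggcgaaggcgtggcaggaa

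*Tyrobp* fell from ETP to DN3 in both ages. Its values were 3.18, 3.15 and 3.45 in adult ETP, -0.93, 0.33 and -0.33 in adult DN2, and -3.99, -4.58 and -1.52 in adult DN3. In fetal cells they were 2.47, 3.13 and 2.21 in ETP, -0.43, 1.39 and 0.44 in DN2, and -4.45, -3.56 and -3.29 in DN3. The 3 stages did not overlap within either age, and the ages overlapped at DN2 and DN3. Adult ETP lay just above fetal ETP.

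The whole course from ETP to DN3 came to -6.62 ± 0.68 log2 in the adult (limma, adjusted p = 2.39e-05) and -6.37 ± 0.68 in the fetus (adjusted p = 3.93e-05). Without adult DN3 replicate 3 the adult course came to -7.55 (adjusted p = 1.17e-06). In adult cells the step from ETP to DN2 was called (-3.57, adjusted p = 0.00549) and in fetal cells the step from DN2 to DN3 (-4.23, adjusted p = 0.00322), while the fetal step from ETP to DN2 was not (-2.13, adjusted p = 0.327). The change of the difference between ages was not called for either step (1.44 and -1.18, adjusted p = 0.838 and 1.00), so that the ages were not shown to differ in timing. The adult step from DN2 to DN3 was -3.05 (adjusted p = 0.0537) and was called without adult DN3 replicate 3 (-3.98, adjusted p = 0.000884), without adult DN2 replicate 1 (-3.36, adjusted p = 0.0467) and when arrays of the same number were fitted as a block (-3.05, adjusted p = 0.0373). No difference between ages was called at ETP (-0.66, adjusted p = 0.464), DN2 (0.78, adjusted p = 0.61) or DN3 (-0.40, adjusted p = 0.952). Without adult DN3 replicate 3 the DN3 difference changed sign to 0.52 and was again not called.

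Of 18 measured receptor genes whose products signal through these adaptors 3 were regulated, a share of 16.7% beside 16.8% of all probe sets, and 8 spanned under 0.3 log2. *Fcgr3*, the activating Fc receptor CD16 that needs FcRγ, stood at 2.58, 1.60 and 4.63 in adult ETP and at 4.25, 5.26 and 3.71 in fetal ETP, and between -0.42 and 0.40 on all later arrays. From ETP to DN2 it fell in adult cells (-3.08, limma, adjusted p = 0.00443) and in fetal cells (-4.33, adjusted p = 0.00134). In fetal DN2, where *Fcer1g* was as high as in fetal ETP, *Fcgr3* stood at -0.17 to 0.40. *Clec4d* and *Clec4e*, the FcRγ-coupled lectins MCL and Mincle, fell from ETP to DN3 in both ages (-5.78 and -5.63 in adult, -6.99 and -5.03 in fetal cells, adjusted p = 0.00057 to 0.00199 over all 4). The adult falls were -7.48 and -7.03 without adult DN3 replicate 3 (adjusted p = 6.21e-07 and 2.20e-07).

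The CD3 chains, which also carry ITAMs, took the opposite course. Of 17 measured ITAM adaptors and kinases 9 were regulated (52.9%, against 16.8% of all probe sets). From ETP to DN3 the adult cells had 6 rises and 4 falls (58.8%, against 10.8%), and the fetal cells 5 rises and 3 falls (47.1%, against 5.45%). *Cd247*, the CD3ζ chain, which can pair with FcRγ in receptors of natural killer cells, rose by 5.47 in adult and 5.93 in fetal cells (limma, adjusted p = 2.93e-06 and 1.76e-06). *Zap70*, the kinase that binds CD3 ITAMs, rose by 4.28 and 4.56 (adjusted p = 1.23e-06 and 7.78e-07). *Plcg2* and *Btk*, signalling enzymes of B and myeloid cells, fell from ETP to DN3 in adult cells (-3.27 and -5.77, adjusted p = 0.000814 and 0.00102 with all arrays). These differences were -4.07 and -7.31 without adult DN3 replicate 3 (adjusted p = 2.46e-06 and 6.23e-07). Without that library both were also called higher in fetal than in adult DN3 (2.23 and 2.45, adjusted p = 0.000934 and 0.00991, against differences of 1.43 and 0.92 with adjusted p = 0.254 and 0.952 when it was kept). *Hcst*, the DAP10 adaptor, was not regulated.

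**Figure D2:**
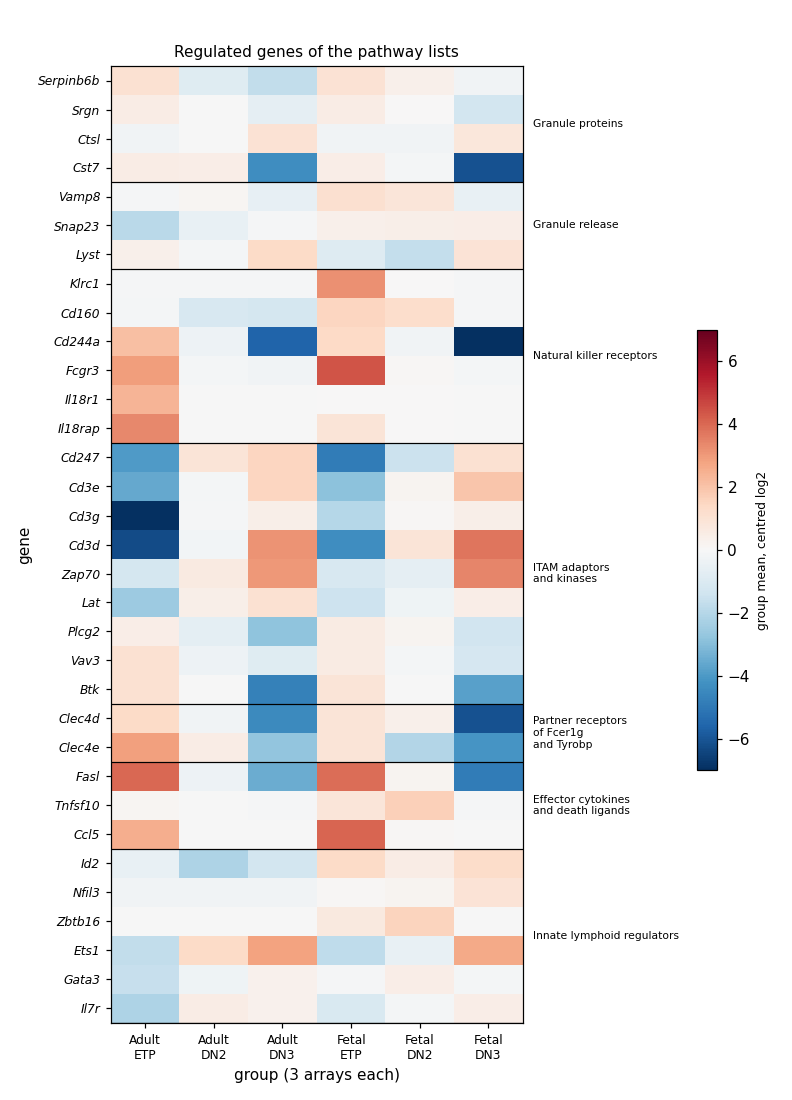
Group means, as centred log2 values, of the regulated genes of the pathway lists, with a row for each gene, a column for each group of 3 arrays and the colour scale running from -7 to 7. CD3 chains and *Zap70* rise towards DN3 while *Cst7*, *Cd244a*, *Btk*, *Clec4d*, *Clec4e* and *Fasl* fall, and *Klrc1* stands out in fetal ETP alone.

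Among 14 measured effector cytokines and death ligands 3 were regulated, a share of 21.4% beside 16.8% of all probe sets and a larger share by gene. *Fasl*, the death ligand of cytotoxic cells, stood at 4.11, 3.90 and 4.12 in adult ETP and 3.94, 3.81 and 4.05 in fetal ETP, and at -4.93, -4.90 and -4.88 in fetal DN3. Adult DN3 read -4.99, -4.90 and -0.57, with replicate 3 again apart. Its fall from ETP to DN3 came to -7.53 in the adult (limma, adjusted p = 8.91e-05) and -8.84 in the fetus (adjusted p = 2.56e-05), and without that library the adult fall was -8.99 (adjusted p = 1.03e-07). *Ccl5*, a chemokine stored by cytotoxic cells, fell from ETP to DN2 in both ages (-2.54 in adult and -4.00 in fetal cells, adjusted p = 0.0338 and 0.00824). *Tnfsf10*, the ligand TRAIL, was 1.67 higher in fetal than in adult DN2 (adjusted p = 0.0248). *Ifng* was not regulated.

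Of 15 measured regulators of innate lymphoid cells 6 were regulated, which is 40% against 16.8% of all probe sets. *Id2*, the inhibitor of E proteins that natural killer cells need, was higher in fetal cells by 1.84 at ETP, 2.64 at DN2 and 2.56 at DN3 (limma, adjusted p = 0.000603, 5.31e-05 and 4.27e-05). *Zbtb16*, which encodes the innate-like T cell factor PLZF, was 1.56 higher in fetal than in adult DN2 (adjusted p = 3.39e-05), at 1.59, 1.47 and 1.53 against -0.09, -0.02 and 0.01. *Eomes* and *Tbx21*, the T-box factors of natural killer cells, spanned 0.79 and 0.15 and were not regulated.

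Taken by comparison, the 8 genes were called between ages mainly at ETP and DN2. Between fetal and adult ETP 3 of 8 were called, all higher in fetal cells, against 8.49% of all probe sets. At DN2 3 were higher and 1 lower, against 3.44%, and at DN3 1 was higher, against 2.77%. These 3 comparisons share no arrays, but they come from a single fit with a shared spread, so their counts are not fully independent.

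**Figure D3:**
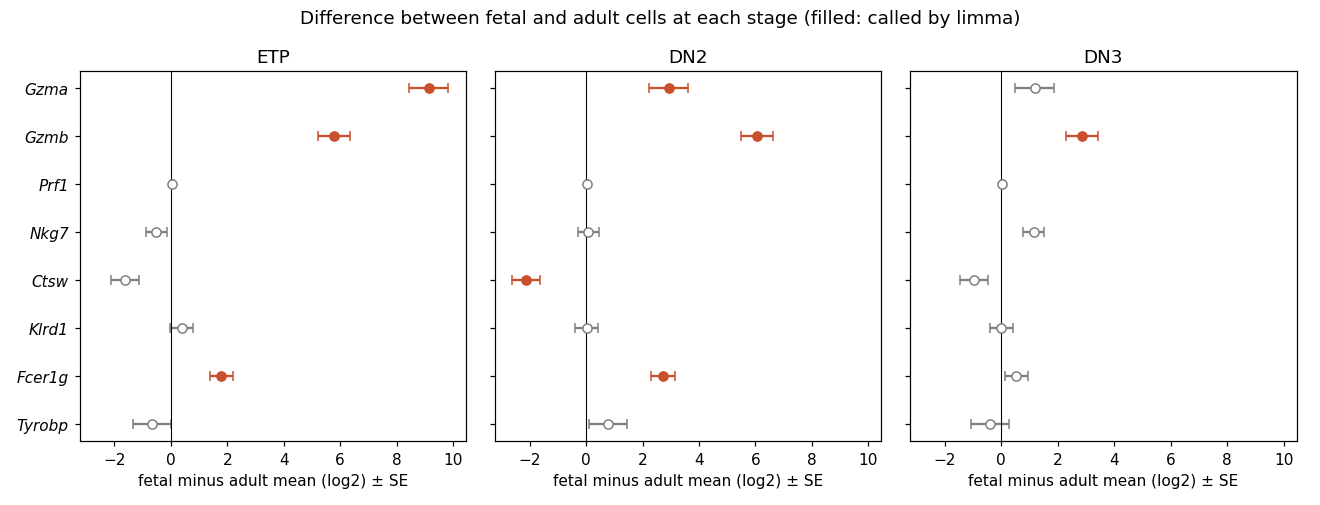
Fetal minus adult difference of the group means (log2) with its standard error from limma for each gene at ETP, DN2 and DN3, where filled points mark called differences. *Gzma* runs from 9.15 at ETP to 1.19 at DN3, *Gzmb* is called at all 3 stages, and *Ctsw* lies below 0 at each stage.

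Along the adult stages 1 gene rose and 2 fell from ETP to DN2 (background 6.07%), 1 fell from DN2 to DN3 (0.928%), and 1 rose and 5 fell from ETP to DN3 (10.8%). Along the fetal stages 1 fell from ETP to DN2 (0.972%), 3 fell from DN2 to DN3 (2.47%) and 4 fell from ETP to DN3 (5.45%). Over ETP to DN3 the median difference of the 8 genes was -1.83 log2 in adult and -2.17 in fetal cells, beside -0.00 and -0.05 over all probe sets. *Klrd1*, *Tyrobp* and *Fcer1g* fell over the whole course in both ages. Without adult DN3 replicate 3 the adult counts were 2 genes from DN2 to DN3, with *Tyrobp* added, and 5 from ETP to DN3, with *Ctsw* lost. Comparisons of neighbouring stages share arrays, so their counts are not independent.

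Whether the gap between fetal and adult cells itself changed along the stages was tested directly. *Gzma* alone was called, from ETP to DN2 (-6.21 ± 0.98 log2, limma, adjusted p = 0.00599, background 0.796%) and from ETP to DN3 (-7.96 ± 0.98, adjusted p = 0.000414, background 2.49%). The first of these had an adjusted p of 0.0805 with the arrays of the compared groups alone. From DN2 to DN3 none of the 8 was called by limma (background 0.548%), 2 had an unadjusted p under 0.05, and the one-way test without adjustment also passed 2. The changes of *Gzmb* (-3.18 ± 0.80, adjusted p = 0.144) and *Fcer1g* (-2.19 ± 0.59, adjusted p = 0.206) were the 2 concerned. Without adult ETP replicate 3 the change of *Gzmb* was called from DN2 to DN3 (-3.18, adjusted p = 0.0165) and from ETP to DN3 (-3.69, adjusted p = 0.00288, against -2.89 and 0.0848 with it). Without adult DN3 replicate 3 that of *Nkg7* from ETP to DN3 was called (2.20, adjusted p = 0.00451, against 1.65 and 0.162). Without adult ETP replicate 1 that of *Gzma* from DN2 to DN3 was called (-1.75, adjusted p = 0.00435).

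Over the 18 arrays, *Gzmb* and *Fcer1g* had the closest courses of any pair of the 8 genes (Pearson r = 0.85), followed by *Klrd1* and *Tyrobp* (0.79) and *Fcer1g* and *Tyrobp* (0.74). The granzymes correlated at 0.43, and *Gzma* and *Ctsw* at -0.79. The arrays share groups of 3, so these values describe the group means more than independent samples.

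Among all regulated genes, those with the courses nearest to *Gzma* were *Khdc1a* (r = 0.98), *Idi1* (0.95) and *Akr1c13* (0.95). Nearest to *Gzmb* were *Tceal8* (0.96), *Ndn* (0.94) and *Yaf2* (0.94), and nearest to *Fcer1g* were *Myo7a* (0.94), *Bsn* (0.92) and *Clnk* (0.90). *Clnk* encodes an adaptor of mast and natural killer cells. *Tyrobp* ran closest to *Spns2* (0.99), *Fasl* (0.98) and *Fes* (0.98), and *Klrd1* to *Plxnc1* (0.99), *Ttpa* (0.98) and *Gcnt2* (0.98). *Nkg7* ran closest to *Plac8* (0.96), *Igfbp4* (0.94) and *Lyl1* (0.93), and *Ctsw* to *Abhd14b* (0.89), *Tmem176b* (0.88) and *Cul9* (0.88). For the flat *Prf1* the highest value was 0.81 with *Maged2*.

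Markers of other cell types that could reach the sorts moved with some of these genes. The study counts *Flt3*, listed here as dendritic, and *Gata2*, listed here as mast cell, with genes of early progenitors or stem cells. The list values thus do not separate other cells from progenitors that express such genes. Of 7 measured markers of natural killer and group 1 innate lymphoid cells 1, *Cd160*, spanned more than 1 log2. *Ncr1* and *Klrk1* stayed between -0.08 and 0.06 on all arrays. The list summed to 1.65 to 2.94 in fetal ETP and -0.66 to -0.25 in adult ETP. Their part in the high *Gzmb* and *Klrd1* of fetal ETP was not tested.

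Some myeloid markers were high in the ETP groups, as *Tyrobp* and *Fcgr3* were. The 13 measured genes summed to 32.88 to 41.45 in adult ETP, 14.63 to 15.05 in fetal ETP, 0.36 to 7.27 in adult DN2, -6.88 to -0.74 in fetal DN2, -8.01 to -0.15 in adult DN3 and -11.26 to -8.42 in fetal DN3. *Csf1r*, the macrophage growth factor receptor, stood at 9.70, 9.46 and 9.50 in adult ETP, at 7.50, 7.39 and 8.90 in fetal ETP, and between -0.05 and 1.08 elsewhere. *Mpo*, the neutrophil peroxidase, stood at 5.78, 4.68 and 5.62 in adult ETP and at 3.85, 4.15 and 3.64 in fetal ETP. These were the 2 of the 13 genes above 1 on every fetal ETP array, where 9 lay between -1 and 1 and the array medians of the list were 0.07 to 0.23. In adult ETP 5 lay above 1 on every array, and *Ctsg* and *Mpeg1*, at 6.06 or more there, were at -0.21 to 0.46 and -0.01 to 0.02 in fetal ETP. *Fcer1g* was higher in fetal than in adult ETP and DN2, where the myeloid sums were lower. The 9 dendritic cell markers summed to 28.46 to 34.36 in adult and 6.66 to 7.65 in fetal ETP. The part of such cells in the course of *Tyrobp* was not tested.

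Mast cell and basophil genes were uneven between the ETP arrays. The 9 measured genes summed to 0.81 to 12.79 in adult ETP, 4.07 to 20.56 in fetal ETP and 0.05 to 1.02 in fetal DN2. *Hdc*, the histamine-forming enzyme, stood at 1.33, 1.55 and 5.79 in adult ETP and at 5.91, 7.36 and 4.13 in fetal ETP. *Cma1*, a mast cell chymase, stood at 2.31, 7.29 and 0.07 in fetal ETP, while *Fcer1a* and *Ms4a2*, the chains that pair with FcRγ in the high affinity IgE receptor, spanned 0.16 and 0.12 over all arrays. Adult ETP replicate 3, with the highest *Hdc* of its group, also had the highest *Gzmb* (0.31), *Fcer1g* (0.91) and *Fcgr3* (4.63) of its group. The same array was highest of its group in *Ctsw* (2.15), *Tyrobp* (3.45) and *Klrd1* (6.65) as well, but not in *Gzma* or *Nkg7*. In fetal DN2, where *Gzmb* and *Fcer1g* were as high as in fetal ETP, *Hdc* was at 0.01, 0.00 and -0.00 and *Cma1* at 0.03, 0.01 and -0.00. *Cpa3*, the mast cell carboxypeptidase, took another course. It stood at 0.66, 1.13 and -0.32 in fetal ETP, at 0.28, 0.99 and 0.07 in fetal DN2 and at -4.04, -2.91 and -4.41 in fetal DN3, so that like *Gzmb* and *Fcer1g* it was low in fetal DN3 and overlapped between fetal ETP and DN2. In adult cells it stood at -0.76, -0.53 and -0.07 in ETP, 1.52, 0.72 and 0.77 in DN2, and -7.45, -6.74 and 0.54 in DN3. The part of mast cells and basophils in the ETP and DN2 values was not tested. The 5 erythroid markers summed to 0.03 at most in adult arrays and to 0.08 to 10.69 in fetal arrays, and the 3 measured γδ T cell markers to between -0.64 and 1.06 on all arrays.

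**Figure D4:**
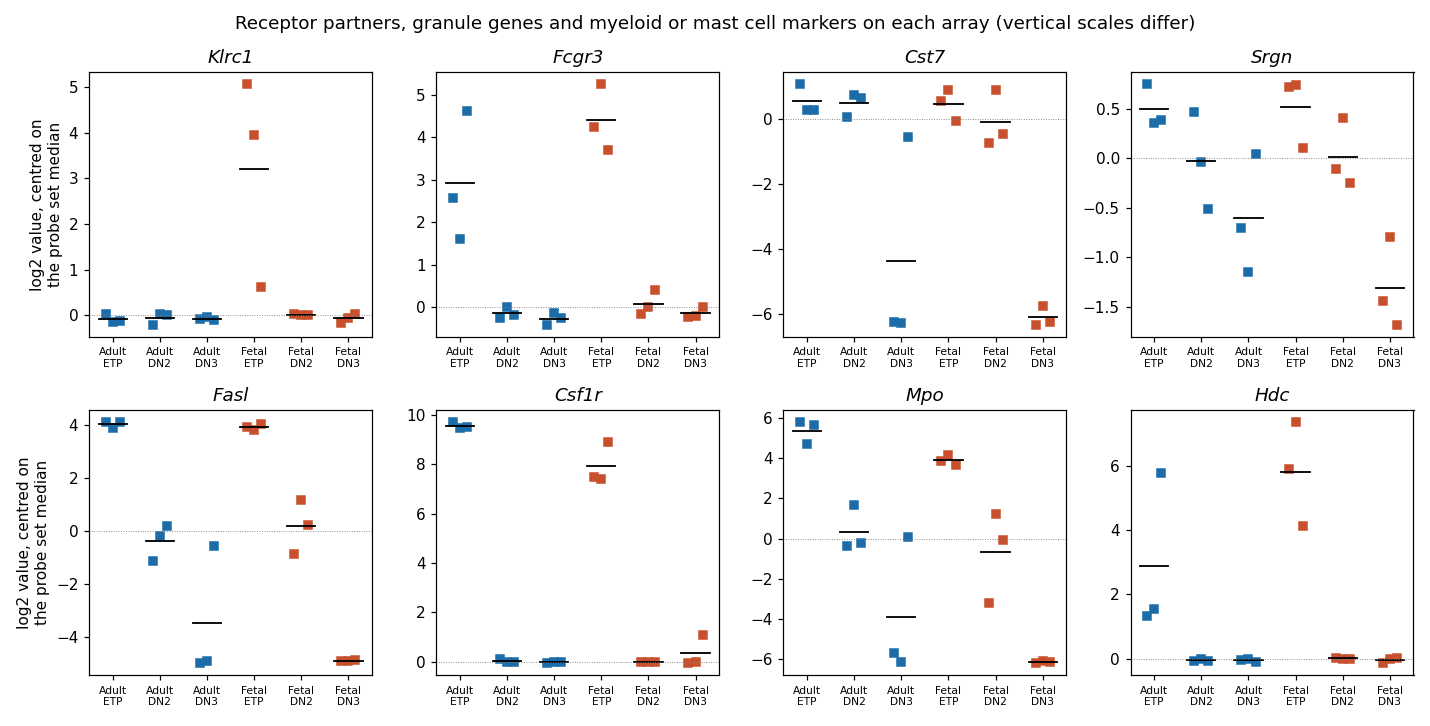
Centred log2 values on each array of receptor partners (*Klrc1*, *Fcgr3*), granule and effector genes (*Cst7*, *Srgn*, *Fasl*) and markers of myeloid (*Csf1r*, *Mpo*) and mast cells (*Hdc*), with adult arrays in blue, fetal arrays in orange and group means as bars. Vertical scales differ between panels. Adult DN3 replicate 3 lies above its group in *Cst7*, *Fasl* and *Mpo*, and *Csf1r* and *Fcgr3* are high in the ETP groups.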

How the data were processed

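Messenger RNA of 18 samples was measured on Affymetrix mouse expression arrays. RNA was amplified in 2 cycles, which can distort differences. The submitters' processing notes name GCRMA for the deposited log2 values, and the table shows that the median of every probe set is 0. Array intensities were not analysed here. Precision is limited by how many arrays there are.

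The 18 arrays were fitted together by limma 3.58.1 (R 4.3.3) with a mean for each of 6 groups (12 residual degrees of freedom, no trend on the level), and the median moderated SD was 0.229 log2. Calls needed an adjusted p under 0.05 over 22626 probe sets and 1.8-fold. A gene with several probe sets was represented by the one with the largest SD, cross-hybridizing names avoided. The 8 genes, the pathway and marker lists and the tests were chosen with earlier results of these data known. Named are all 8 genes, list genes whose role stands beside them, and the 3 regulated genes nearest to each by Pearson r.

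Alternatives were centring of arrays, array weights (the estimate stopped before convergence), the compared groups alone, the one-way test without adjustment, the replicate number as a block, a span of at least 1 log2, the mean of all probe sets, no fold threshold and leaving out each array. A filter on low intensity could not be applied to centred values. Deviations from the group means correlated above 0.1 between arrays of the same number, for each number, in every pair among the fetal groups (r = 0.31 to 0.60). The same held for adult DN2 with adult DN3 (0.12 to 0.42) and for adult DN2 with fetal groups (0.13 to 0.37). The labels state no pairing of the arrays, and the source of these correlations was not tested. Adult ETP had no such correlation with any group, and adult DN3 had none with a fetal group. Probe set symbols came from the platform annotation, with 691 probe sets naming several genes and 1555 none. Figures were drawn with matplotlib 3.10.9.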

Additional observations from a re-analysis of the deposited data

Results flagged for a closer look

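The fetal against adult difference of *Gzma* changed along the stages by a direct test of that change. It shrank by -6.21 ± 0.98 log2 from ETP to DN2 (limma, adjusted p = 0.00599) and by -7.96 ± 0.98 log2 from ETP to DN3 (adjusted p = 0.000414). The group means behind these values were -8.87, -1.91 and -0.23 in adult and 0.28, 1.03 and 0.96 in fetal ETP, DN2 and DN3, and every adult array lay below every fetal array. Whether limits of the measured range in adult ETP or in fetal cells shaped the size of these changes could not be checked with centred values. Both changes were called in each of the 18 fits that left out an array. With the arrays of the compared groups alone the change from ETP to DN2 was not called (limma, adjusted p = 0.0805), while that from ETP to DN3 was.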

How the results depend on the processing

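The 48 results on single genes counted here were called, or differed by at least 1 log2, in the main analysis. Small differences, which reverse most easily, were thus left out. Over 25 alternatives each, none of the 48 reversed direction, 1108 comparisons with an alternative kept their side of the threshold, 53 lost the call and 39 gained it. Many alternatives, such as the one-way test or leaving out an array of another group, keep the difference of the means. A reversal was not possible in those, so its absence there says nothing about stability. Some smaller differences did reverse when an array was left out. That of *Klrd1* between fetal and adult ETP ran from -0.17 to 1.01. That of *Tyrobp* between fetal and adult DN3 ran from -1.01 to 0.52. The call counts moved by over 1.5 times as follows. The adult step from DN2 to DN3 (1 of 8 genes) gave 2 with array weights, 0 with the compared groups alone, 4 by the unadjusted one-way test, and 2 with the replicate block, with probe sets spanning at least 1 log2 and with the mean of all probe sets. The fetal step from ETP to DN2 (1) gave 0 with the compared groups alone and 3 by the one-way test. Fetal against adult DN2 (4) gave 2 with the compared groups alone, and DN3 (1) gave 2 with them and 2 by the one-way test. The change of the age difference from ETP to DN2 (1) gave 0 with the compared groups alone, that from DN2 to DN3 (0) gave 2 with array weights, 1 with the compared groups alone and 2 by the one-way test, and that from ETP to DN3 (1) gave 3 by the one-way test and 2 with probe sets spanning at least 1 log2. Leaving out each array in turn gave 0 to 2 for the adult step from DN2 to DN3, 2 to 4 for fetal against adult ETP and DN2, 0 to 2 for DN3, 0 to 1 for the change from DN2 to DN3, 1 to 2 for the change from ETP to DN3, 5 to 6 for adult ETP to DN3 and 6 to 7 for the regulated genes, and the same count as in the main analysis for the other comparisons. In these fits the pair of arrays left in a group is taken to vary like the other groups. Among groups whose arrays of the same number correlated, the replicate block added *Tyrobp* in the adult step from DN2 to DN3 and changed no other call. The block ended the call of *Ctsw* from adult ETP to DN3 (-1.61, adjusted p = 0.0532), a pair of groups without such a correlation for each number. With the compared groups alone fewer arrays enter each fit. The cause of the changes was not tested. Centred values hold no signal over background, so a flat gene such as *Prf1* cannot be called absent.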
